A study of Mus musculus with 4 samples.

Results

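The genes described here encode the constitutive proteasome. They were taken by symbol, as every gene named *Psma*, *Psmb*, *Psmc* or *Psmd* followed by a number, and the interferon-inducible subunits *Psmb8*, *Psmb9* and *Psmb10* and pseudogene symbols were left out. The rule found 37 of the 31053 genes in the series. By role they were 7 genes of the outer α rings of the 20S core (*Psma1* to *Psma7*), 3 genes of the catalytic β subunits (*Psmb5*, *Psmb6*, *Psmb7*), 4 genes of the other β subunits (*Psmb1* to *Psmb4*), 6 genes of the 19S ATPases (*Psmc1* to *Psmc6*), 3 genes of other subunits of the 19S base (*Psmd1*, *Psmd2*, *Psmd4*), 8 genes of the 19S lid and 3 genes of 19S assembly chaperones (*Psmd5*, *Psmd9*, *Psmd10*). The last 3 were *Psma8*, a testis subunit, *Psmb11*, a thymus subunit, and *Psmc3ip*, which matches the symbol rule but encodes a factor of homologous recombination and no proteasome subunit. The 37 genes lie on 16 chromosomes, with at most 7 on a single chromosome.

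Mouse pancreatic islets of strain C57BL/6 (C57BL6/J in the study's methods) were cultured for 6 h and their cells profiled by 10x single-cell RNA sequencing. There were 4 libraries with 1 library per condition, of islets left untreated or given IL-1β, IFN-γ or the 2 cytokines together. The study pooled islets of several male mice and divided the pool among the conditions, so that the groups share animals and carry no transgene, and any difference between a cytokine and the library that carries it cannot be told apart. With 1 library per condition and so no replicate of a condition, no test of a cytokine difference was made, and the intervals given are exact 95% intervals that cover counting error only.

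The proteasome is the protease of the cytosol and nucleus that degrades ubiquitin-tagged proteins. Its barrel-shaped 20S core has rings of α subunits that gate entry and inner rings of β subunits, of which *Psmb5*, *Psmb6* and *Psmb7* encode the chymotrypsin-like, caspase-like and trypsin-like proteases, and the 19S particle binds, unfolds and feeds in the substrate. Interferon-γ induces *Psmb8*, *Psmb9* and *Psmb10*, which take the places of *Psmb5*, *Psmb6* and *Psmb7* in newly assembled cores and change the peptides made for antigen presentation.

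Of 12571 barcodes, 7471 cells were kept, with 1521 in the untreated, 2018 in the IL-1β, 2122 in the IFN-γ and 1810 in the combined library. Cells were classed by the share of their unique molecular identifiers (UMIs, each counting 1 captured mRNA) that came from a hormone gene, or by marker genes. This gave 4940 β-like, 882 α-like and 255 δ-like cells and smaller classes of PP-like, macrophage-like, endothelial-like and mesenchymal-like cells. Genes that the hormone rule did not use followed the classes. *Mafa*, a β-cell transcription factor, stood at 340 CPM (UMIs scaled to a total of 1e+06 over the cells of a class in a library) in β-like and 1.99 CPM in α-like cells, *Irx2*, an α-cell transcription factor, at 160 CPM in α-like and 2.38 CPM in β-like cells, and *Hhex* at 197 CPM in δ-like and 0.695 CPM in β-like cells. The PP-like class rests on *Ppy* alone, since its other marker, *Pyy*, was abundant in δ-like cells too (88079 CPM in PP-like, 54585 CPM in δ-like cells).

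The untreated library stood apart from the other 3 before any proteasome gene was considered. Its β-like cells were deeper, with a median of 17134 UMIs against 8408.5 under IL-1β, 11082 under IFN-γ and 12250 under both. Hormone genes took 47.6% of its β-like UMIs, against 28.6%, 34.5% and 37.9%. The upper limit of 4000 genes per cell removed 843 of its barcodes, against 146, 345 and 222. Because the hormone share lowers every other gene's CPM together, each log2 ratio below is given relative to the median gene tested in the same cells (mean of at least 20 CPM over the libraries). Without that centring the median gene in β-like cells was higher than in the untreated library by 0.47 under IL-1β, 0.33 under IFN-γ and 0.15 under both (log2).

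The composition of the 20S core transcripts differed between the libraries. In β-like cells the 3 catalytic genes gave 20.4% of the UMIs of the 14 core genes in the untreated library (interval 19.9% to 20.8%, 6505 of 31932 UMIs). The share was 12.5% under IL-1β (12.1% to 13.0%), 14.2% under IFN-γ (13.8% to 14.6%) and 15.4% under both (15.0% to 15.7%), and none of the 4 intervals overlapped. The α ring moved the other way, from 47.4% of core UMIs in the untreated library to 58.0%, 54.7% and 56.0%. Neither share contains hormone genes or the inducible subunits, and the order of the libraries was kept when each cell was thinned to 4000 UMIs (21.1%, 12.3%, 13.9% and 15.3%) and when no upper gene limit was set (20.6%, 12.6%, 14.2% and 15.4%). These shares were computed after the levels of the single genes had been seen.

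The same order of untreated above the rest held in all 7 cell classes. In α-like cells the catalytic share was 21.5% untreated, 13.2% under IL-1β, 14.3% under IFN-γ and 15.5% under both. In δ-like cells it was 21.1%, 12.8%, 13.8% and 14.4%, and in PP-like cells 20.7%, 11.0%, 13.1% and 13.0%. Macrophage-like cells, which are not endocrine, had the highest catalytic share in each library (26.9%, 19.4%, 17.1% and 21.1%). The untreated interval lay above the other 3 in β-like, α-like, δ-like, PP-like and macrophage-like cells. It overlapped at least 1 of them in endothelial-like cells (18.1% with an interval of 15.8% to 20.5%, against 14.7% with 12.3% to 17.5% for IL-1β) and in mesenchymal-like cells (17.1% to 25.5%, against 19.1% with 15.8% to 22.6% for both cytokines), of which there were 50 cells in all. The 7 classes come from the same 4 libraries and are not 7 replicates of a condition.

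**Figure D1:**
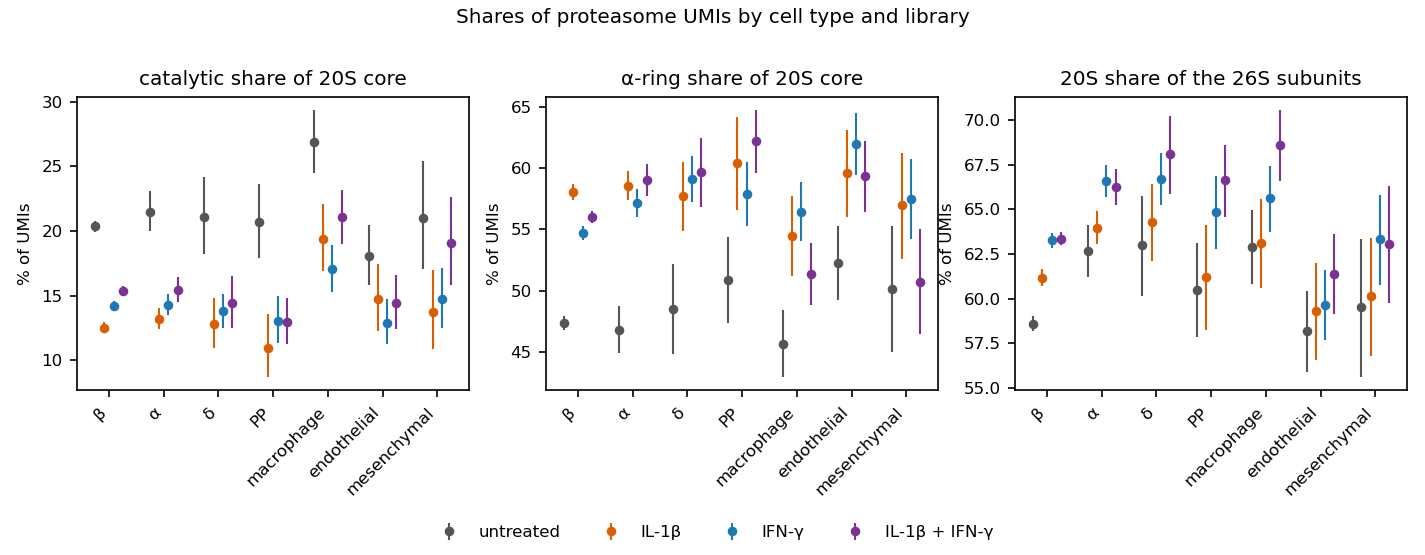
Share of UMIs within the proteasome by cell class and library: the catalytic subunits' share of 20S core UMIs, the α ring's share of 20S core UMIs, and the 20S core's share of 26S UMIs (percent), each point 1 library with its exact binomial 95% interval for counting error. The untreated library has the highest catalytic share and the lowest α-ring share in each of the 7 classes.

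Among the 3 catalytic genes themselves, none was higher in a single-cytokine library relative to the median gene. *Psmb5* stood at 127 CPM in untreated β-like cells, 105 under IL-1β, 120 under IFN-γ and 142 under both. Relative to the median gene this was a log2 ratio of -0.74 under IL-1β, -0.42 under IFN-γ and 0.01 under both. It was the lowest of all members tested under either single cytokine. *Psmb6* stood at 125, 118, 126 and 154 CPM in the same order (log2 ratios of -0.55, -0.32 and 0.14). *Psmb7* stood at 71.9, 73.6, 68.9 and 90.7 CPM (-0.44, -0.39 and 0.18). In plain CPM the levels of *Psmb6* and *Psmb7* under a single cytokine were near those of the untreated library while most other genes were higher, so their lower ratios rest on the centring, and without it the sign turned for *Psmb7* under IL-1β (0.03) and for *Psmb6* under IFN-γ (0.01). *Psmb5* under IL-1β was lower in plain CPM too.

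The α ring genes were on the high side in every comparison with the untreated library. All 7 lay above the median gene under IL-1β, under IFN-γ and under both. Their median log2 ratios were 0.30, 0.26 and 0.81. *Psma6* had 70.1 CPM in untreated β-like cells, 185 under IL-1β, 95.4 under IFN-γ and 170 under both, so that the 2 libraries with IL-1β stood above the 2 without it. Its log2 ratio was 0.92 (0.83 to 1.03) under IL-1β, the highest of any member, and 0.11 under IFN-γ. *Psma5* leaned to IFN-γ instead, with 78.9, 130, 148 and 155 CPM, a log2 ratio of 0.25 under IL-1β and 0.57 under IFN-γ, the highest of any member under IFN-γ. *Psma7* followed it with 170, 278, 304 and 341 CPM (0.24, 0.50 and 0.85). *Psma1* (84.5, 167, 148 and 166 CPM) was high under either cytokine, with log2 ratios of 0.51 and 0.46. *Psma3* (154, 295, 233 and 262 CPM) had 0.46 under IL-1β and 0.26 under IFN-γ. *Psma2* (130, 222, 193 and 216 CPM) and *Psma4* (65.9, 95.8, 91.9 and 97.2 CPM) stayed within the ±0.32 counted below under each single cytokine and passed it under both (0.58 and 0.40).

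**Figure D2:**
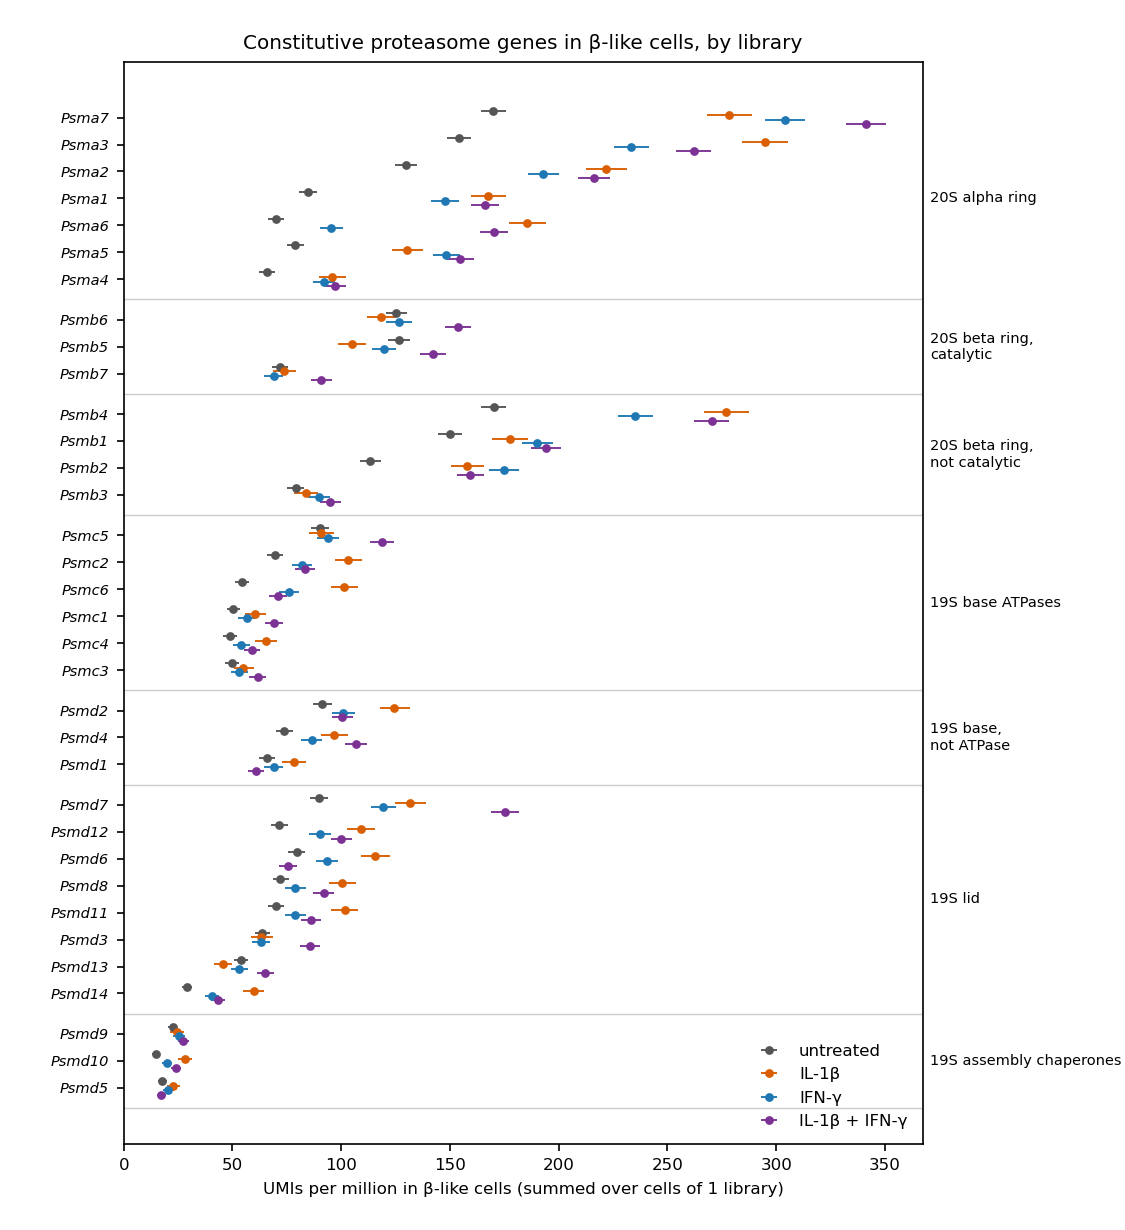
Level of each constitutive proteasome gene in β-like cells, in CPM on a linear axis, with 1 point per library and its exact Poisson 95% interval for counting error. Genes are grouped by role. *Psma6* stands at 185 and 170 CPM in the 2 libraries with IL-1β and at 70.1 and 95.4 CPM in the other 2, whereas *Psmb5* spans only 105 to 142 CPM.

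Counted over the whole complex at the main settings, the members were not moved more often than other genes by a single cytokine. A difference was counted when it passed 0.32 on the log2 scale in either direction relative to the median gene, and 33 of the 37 members were abundant enough to be tested in β-like cells. With IL-1β, 6 members were higher and 9 lower, against 28.2% and 29.4% of the 5158 genes tested. With IFN-γ, 3 were higher and 4 lower, against 13.1% and 13.3%, and at equal depth 6 of 34 were higher and 5 lower (15.2% and 15.9%). With both, 14 were higher and none lower, against 28.9% and 27.2%. The member medians were 0.00, -0.10 and 0.24. The 3 comparisons share the untreated library, so that its own peculiarities enter each of them. Without centring the counts became 21 higher and 0 lower under IL-1β (all genes 60.7% and 10.1%), 15 and 0 under IFN-γ (51.6% and 2.0%) and 21 and 0 under both (38.5% and 19.1%). Of the 9 members lower under IL-1β, 5 had the opposite sign without centring (*Psmb3*, *Psmb7*, *Psmc3*, *Psmc5* and *Psmd9*). Without hormone genes in the total and without centring the counts were 7 and 7 (all genes 28.6% and 29.9%), 3 and 4 (14.5% and 13.3%), and 9 and 1 (23.3% and 35.3%).

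The 4 members not tested were *Psma8* and *Psmb11*, with 0 UMIs in β-like cells of all 4 libraries, *Psmc3ip* and *Psmd5*. A count of 0 there allows up to 0.149 CPM in the untreated library and up to 0.297 CPM in the IL-1β library. *Psmc3ip* stood at 1.74, 1.98, 2.10 and 1.06 CPM and *Psmd5*, an assembly chaperone of the 19S base, at 17.8, 22.8, 20.4 and 17.2 CPM.

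The other members of the core and of the 19S particle moved less uniformly than the α ring. Of the non-catalytic β subunits, *Psmb3* was lower under IL-1β relative to the median gene (79.1 CPM untreated, 83.6 under IL-1β, 89.6 under IFN-γ, 94.9 under both, and log2 ratios of -0.39, -0.16 and 0.11), though not in plain CPM (0.08 without centring). *Psmb2* (113, 158, 175 and 159 CPM) was among the 5 highest members under IFN-γ at 0.29. *Psmb4* reached 0.51 under both cytokines (170, 277, 235 and 270 CPM), and *Psmb1* (150, 178, 190 and 194 CPM) passed the limit in none of the 3 comparisons. The summed UMIs of these 4 genes had log2 ratios of -0.03, 0.09 and 0.33, between those of the catalytic genes (-0.60, -0.37 and 0.10) and those of the α ring (0.40, 0.35 and 0.75).

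In the 19S particle, subunits of the same module differed from each other. Among the ATPases, which unfold the substrate, *Psmc6* was higher under IL-1β (54.2, 101, 75.9 and 70.8 CPM, a log2 ratio of 0.42 under IL-1β) and *Psmc5* and *Psmc3* were lower relative to the median gene (90.04, 90.7, 93.7 and 119 CPM, a ratio of -0.46, and 49.6, 55.0, 53.1 and 61.6 CPM, a ratio of -0.33), but not without centring (0.01 and 0.15). No ATPase passed the limit under IFN-γ or under both cytokines. In the lid, *Psmd14*, the deubiquitinase that removes ubiquitin chains from substrates, had 29.1, 59.7, 40.4 and 43.2 CPM (log2 ratios of 0.54, 0.12 and 0.40). *Psmd7*, its structural partner, instead stood out under both cytokines together (89.7, 132, 119 and 175 CPM, with ratios of 0.08, 0.07 and 0.80). *Psmd13* (53.8, 45.6, 53.2 and 65.1 CPM) and *Psmd3* (63.7, 63.3, 63.0 and 85.7 CPM), both structural lid subunits, were low relative to the median gene under IL-1β at -0.71 and -0.48 and under IFN-γ at -0.35 each. These calls rest on the centring, since without it no member was lower past the limit under either single cytokine. In plain CPM *Psmd3* under either cytokine and *Psmd13* under IFN-γ were near the untreated level. Under both cytokines the log2 ratio was 0.12 (-0.002 to 0.25) for *Psmd13*, an interval that includes 0, and 0.27 (0.16 to 0.39) for *Psmd3*.

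The lowest members under both cytokines were *Psmd1* and *Psmd6*. *Psmd1*, a scaffold of the base, stood at 65.8, 78.1, 68.9 and 60.7 CPM (-0.23, -0.27 and -0.27). *Psmd6*, a lid subunit, stood at 79.4, 116, 93.3 and 75.4 CPM (0.06, -0.10 and -0.23). Neither passed the limit. *Psmd2* (91.3, 124, 101 and 101 CPM) and *Psmc2* (69.6, 103, 81.9 and 83.4 CPM) were the next in that order apart from *Psmb5*, at -0.02 and 0.10. Of the assembly chaperones, *Psmd10* had 14.8, 28.1, 19.7 and 24.0 CPM with ratios of 0.41, 0.06 and 0.51, and *Psmd9* had 22.4, 24.3, 25.4 and 27.2 CPM with a ratio of -0.36 for IL-1β, which was 0.11 without centring.

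**Figure D3:**
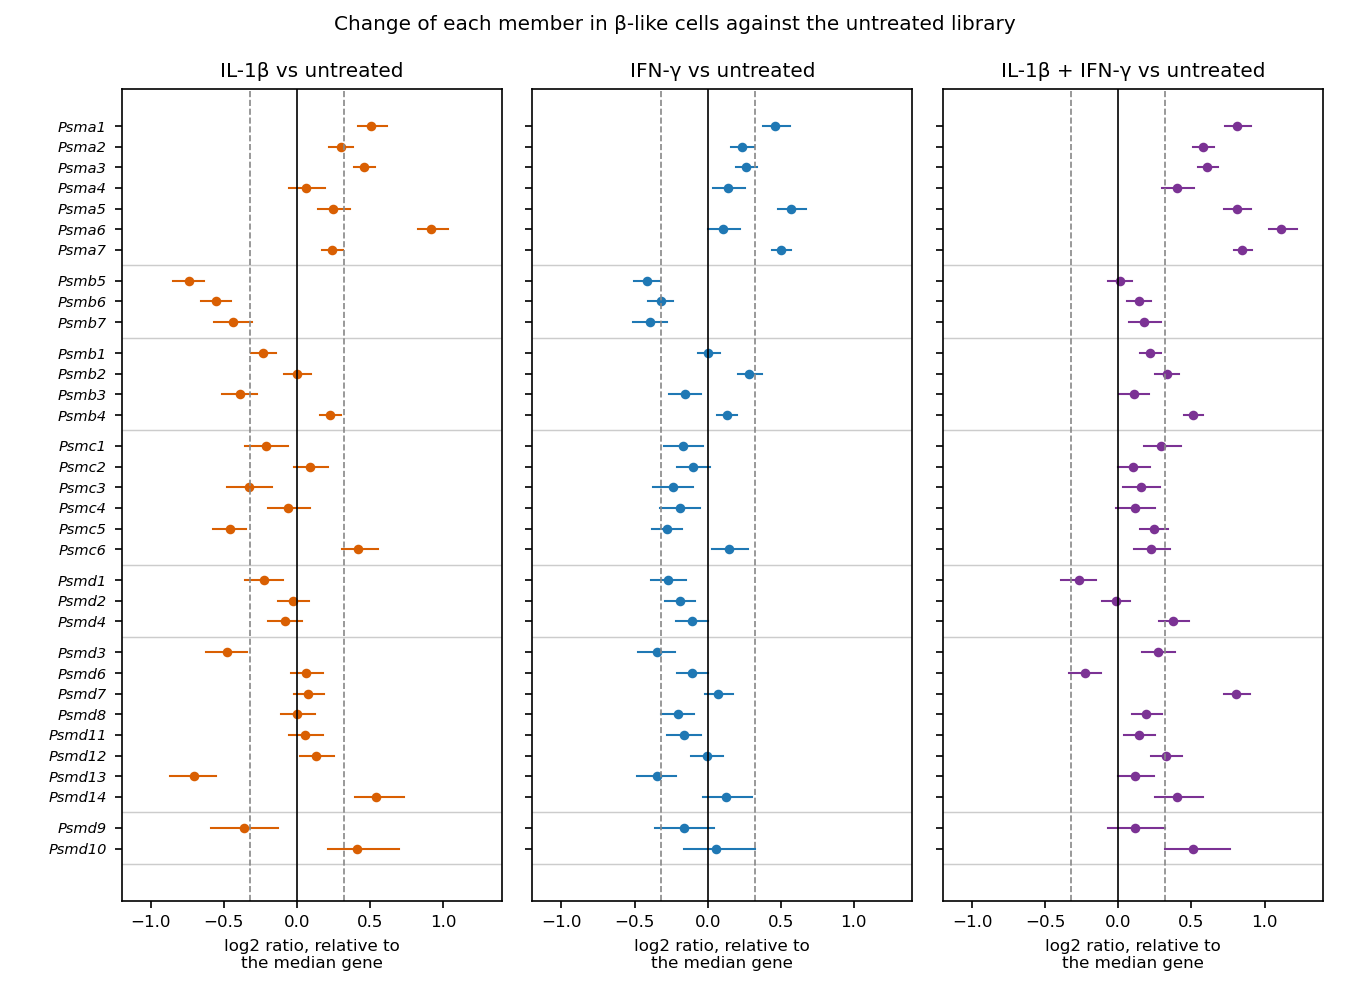
Log2 ratio of each member to the untreated library in β-like cells, relative to the median of 5158 genes, for IL-1β, IFN-γ and both, with exact conditional Poisson 95% intervals for counting error and dashed lines at the limit of 0.32. The 7 α ring genes lie above 0 in all 3 panels, and *Psmb5*, *Psmb6* and *Psmb7* lie below 0 in the panels of the single cytokines.

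Summed over all members, the level in β-like cells differed from the median gene chiefly under both cytokines. The summed level was 2769 CPM untreated, 3946 under IL-1β, 3574 under IFN-γ and 4035 under both. Relative to the median gene the log2 ratio was 0.04 (0.02 to 0.06) under IL-1β, 0.03 (0.02 to 0.05) under IFN-γ and 0.39 (0.37 to 0.41) under both. As CPM of the UMIs without hormone genes the sums were 5283, 5526, 5459 and 6500.0. On either scale the library with both cytokines was the highest of the 4, and on the hormone-free scale the other 3 lay close to each other. Thinned to 4000 UMIs, a β-like cell carried on average 11.1 member UMIs in the untreated library, 16.0 under IL-1β, 14.6 under IFN-γ and 16.7 under both.

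Comparisons that share no library gave a second reading of each cytokine. The same 4 libraries serve both cytokines, so apart from centring the pairs differ by the same amount for IFN-γ and for IL-1β. Likeness or unlikeness of the pairs is therefore a single observation and not a separate one for each cytokine. IFN-γ was added to untreated islets and, in a pair of other libraries, to islets with IL-1β. For the α ring in β-like cells the log2 ratio of the summed UMIs was 0.35 (0.32 to 0.39) in the first pair and 0.33 (0.30 to 0.36) in the other. Adding IL-1β gave 0.40 (0.36 to 0.43) to untreated islets and 0.38 (0.35 to 0.41) to islets with IFN-γ. For the catalytic genes the pairs had opposite signs, at -0.37 and 0.68 for added IFN-γ and at -0.60 and 0.46 for added IL-1β. The signs of the catalytic pairs were the same without centring (-0.04 and 0.38, -0.12 and 0.30), but the α ring ratios then were 0.69 and 0.03 for IFN-γ and 0.87 and 0.21 for IL-1β and no longer alike.

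Against single-cytokine islets the members of β-like cells were on the high side. With both cytokines against IL-1β, 15 of 33 members were higher past the limit and 0 lower (all genes 22.2% and 17.6%). Against IFN-γ, 18 were higher and 0 lower (24.8% in each direction). Without centring these counts were 6 and 4 against IL-1β (all genes 7.99% and 47.4%) and 5 and 0 against IFN-γ (16.2% and 37.1%). *Psmd13*, *Psmb5*, *Psmd3*, *Psmd7* and *Psmc5* were highest against IL-1β, with log2 ratios of 0.80, 0.73, 0.73, 0.71 and 0.68. Of these 5, 4 were among the 5 lowest members under IL-1β alone, and the IL-1β library enters both comparisons.

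Few single members passed the limit in both pairs. *Psma5* and *Psma7* were higher in both pairs that added IFN-γ (2 of 33 members, 6.06%, against 5.08% of all genes). *Psma1*, *Psma3*, *Psma6* and *Psmd10* were higher in both pairs that added IL-1β (4 of 33, 12.1%, against 14.9%). Of the 33 members in β-like cells 0 were lower in both, against 67 of 5158 genes for IFN-γ and 715 for IL-1β. In α-like cells *Psmd6* was lower in both pairs that added IFN-γ (-0.41 and -0.39), 1 of 34 members against 214 of 5832 genes. For IL-1β 0 members were lower in both, against 760 genes. The members higher in both pairs were *Psma5*, *Psma7* and *Psmd14* for IFN-γ (8.82% of 34, against 6.02%) and *Psma3*, *Psma6* and *Psmd14* for IL-1β (8.82%, against 14.3%). *Psma5* and *Psma7* for IFN-γ and *Psma3* and *Psma6* for IL-1β were thus common to β-like and α-like cells, which share the libraries. In δ-like cells *Psma1*, *Psma5* and *Psma7* were higher in both pairs for IFN-γ (9.09% of 33, against 10.3%). For IL-1β the members were *Psma2*, *Psmc6* and *Psmd8* (9.09%, against 16.2%), so *Psma3* and *Psma6* did not recur there. For each cytokine 1 of 33 members of δ-like cells was lower in both pairs, against 499 of 6033 genes for IFN-γ and 955 for IL-1β.

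The inducible subunits that replace the catalytic 3 were far higher under IFN-γ. In β-like cells *Psmb8* stood at 38.1 CPM untreated, 118 under IL-1β, 335 under IFN-γ and 397 under both. *Psmb9* stood at 18.4, 29.5, 218 and 240.4 CPM and *Psmb10* at 46.4, 142, 269 and 364 CPM. The inducible genes' share of the UMIs of the 3 pairs (*Psmb8* with *Psmb5*, *Psmb9* with *Psmb6*, *Psmb10* with *Psmb7*) was 24.1% untreated, 49.4% under IL-1β, 72.3% under IFN-γ and 72.2% under both. IFN-γ alone and both cytokines thus gave nearly the same share, with a higher summed level of either kind in the combined library (822 and 1001 CPM inducible, 315 and 386 CPM catalytic). By pair, *Psmb9* took 12.8%, 19.9%, 63.3% and 61.0%, *Psmb8* 23.1%, 52.9%, 73.7% and 73.6%, and *Psmb10* 39.3%, 65.9%, 79.6% and 80.0%. Under IL-1β the *Psmb8* and *Psmb10* shares were thus further from the untreated library than that of *Psmb9*. These are shares of transcripts captured at the 3' end and not of assembled protein, and they compare libraries within a pair only.

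In the other classes the share in the 3 pairs was likewise highest in the libraries with IFN-γ. It was 17.7%, 36.9%, 70.9% and 65.3% in α-like and 29.7%, 53.1%, 81.2% and 77.8% in δ-like cells. Macrophage-like cells already had 39.5% untreated and had 40.3% under IL-1β, 70.1% under IFN-γ and 64.6% under both. Endothelial-like cells went from 10.9% to 22.8%, 71.5% and 70.3%, and mesenchymal-like cells from 6.90% to 14.3%, 65.3% and 56.2%.

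**Figure D4:**
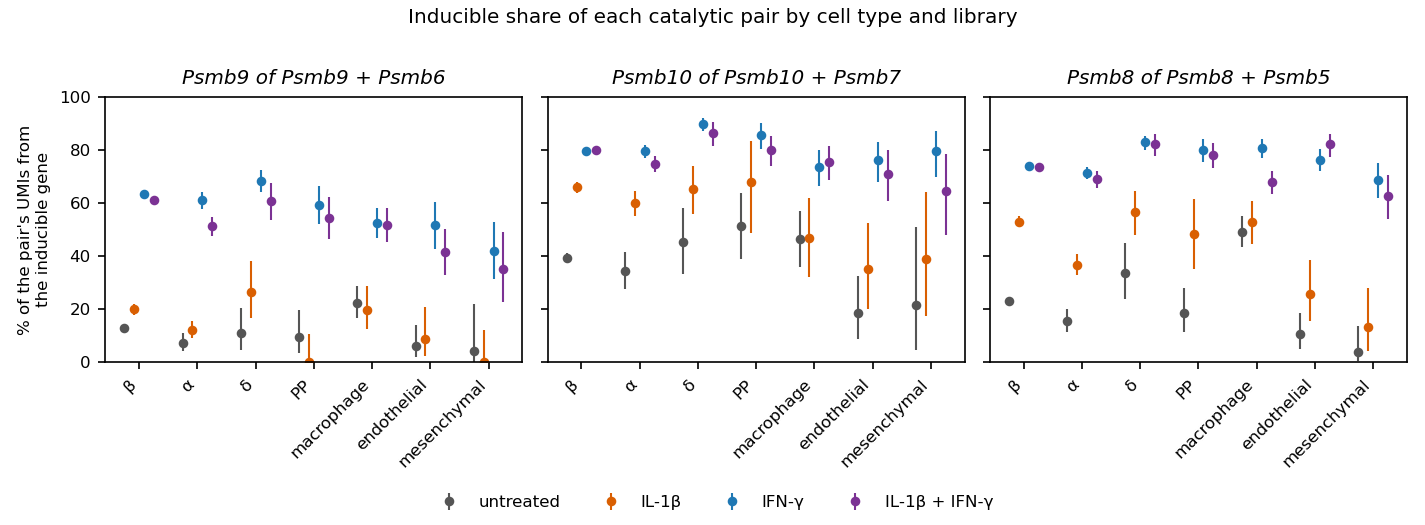
Share of inducible UMIs in each catalytic pair (percent) by cell class and library, 1 panel per pair, with exact binomial 95% intervals for counting error. In β-like cells *Psmb9* stays at 12.8% and 19.9% without IFN-γ and reaches 63.3% and 61.0% with it, whereas *Psmb8* and *Psmb10* are already at 52.9% and 65.9% under IL-1β.

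Other genes of the pathway showed which neighbours of the complex moved with it in β-like cells. All 5 genes of the immunoproteasome and activator list (*Psmb8*, *Psmb9*, *Psmb10*, *Psme1* and *Psme2*) passed the limit upward under IFN-γ and under both, and 4 of them under IL-1β. Of all genes, 13.1% did so under IFN-γ, 28.9% under both and 28.2% under IL-1β. *Psme2*, a subunit of the PA28 activator that opens the α ring, stood at 108, 358, 266 and 510 CPM, and its partner *Psme1* at 68.3, 188, 204 and 257 CPM. Of the other activators and the inhibitor, *Psmf1*, an inhibitor of the core, was 1.03 higher on the log2 scale under both (19.01, 25.6, 32.4 and 44.6 CPM). *Psme4*, the PA200 activator, was the single gene of that list to be lower, at -0.46 under both (47.1, 72.5, 67.7 and 37.9 CPM). *Psme3*, the nuclear activator, stood at 22.5, 42.6, 25.2 and 41.0 CPM, high in both libraries with IL-1β.

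The assembly factors did not move together. *Pomp*, the chaperone that closes assembly of the 20S core, had 154, 231, 277 and 283 CPM (log2 ratios of 0.11, 0.51 and 0.72). *Psmg4*, which helps form the α ring, had 33.8, 64.0, 81.5 and 56.3 CPM (0.43, 0.91 and 0.56). The other 3 assembly genes listed were under the low-value limit. *Psmg1*, a partner in α ring assembly, had 23.4, 18.7, 22.02 and 12.3 CPM, *Psmg2* 14.5, 20.3, 17.2 and 14.8 CPM, and *Psmg3* 18.4, 21.3, 20.1 and 19.8 CPM, with log2 ratios under IFN-γ of -0.42, -0.10 and -0.21. Of the subunits outside the symbol rule, the lid subunit *Sem1* had 184, 298, 228 and 183 CPM and the ubiquitin receptor *Adrm1* 43.3, 47.1, 42.6 and 50.3 CPM. *Adrm1* was lower past the limit relative to the median gene with each single cytokine (-0.35 and -0.36). In plain CPM it was higher than untreated under IL-1β and near the untreated level under IFN-γ. Neither gene passed the limit under both.

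The genes that control proteasome expression passed the limit upward under IL-1β in 4 of 4 cases (28.2% of all genes), and in 1 of 4 under IFN-γ (13.1%) and 1 of 4 under both (28.9%). *Nfe2l1*, the transcription factor that raises proteasome genes when the complex is impaired, stood at 89.7, 159, 122 and 173 CPM (0.34, 0.11 and 0.79). *Nfe2l2* stood at 22.1, 52.4, 36.0 and 29.7 CPM (0.74, 0.35 and 0.26). *Ddi2* and *Ngly1*, which process the *Nfe2l1* product, had log2 ratios of 0.43 and 0.51 under IL-1β and between 0.01 and 0.12 in the other comparisons. Of 13 tested ubiquitin and delivery genes, 2 were higher and 4 lower under IL-1β (28.2% and 29.4% of all genes), 1 and 4 under IFN-γ (13.1% and 13.3%), and 4 and 1 under both (28.9% and 27.2%), so that most of these counts were near or below the shares of all genes. The polyubiquitin gene *Ubb* had 1639, 1416, 1293 and 1764 CPM. All 6 heat shock genes tested were higher under both cytokines (28.9% of all genes), among them *Hspa8* (691, 1149, 871 and 1943 CPM). In each single-cytokine library 5 of them were (28.2% of all genes under IL-1β and 13.1% under IFN-γ). The treatment itself was visible in *Nos2* (0.05, 137, 2.38 and 636 CPM) and *Gbp2* (1.49, 286, 828 and 1831 CPM). The stated roles are background, and no relation of these genes to the members was tested.

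Promoters are given for a pair of α ring genes and for the catalytic genes with an entry. The reason is that these groups stood toward opposite ends of the complex in β-like cells under each single cytokine. RefSeq promoter sequence (GRCm38.p6, 250 bases before to 50 after the start) was at hand for 30 of the 37 members, as 32 promoters. The stretches below end at the base before the RefSeq start or, where the gene as annotated in GENCODE M21 begins earlier, before that gene. They run 5′ to 3′ on the gene's strand, and carry in capitals the CCAAT box (CCAAT, or ATTGG on the other strand) in *Psma1* and *Psma6* and the core of the antioxidant response element (TGACNNNGC), the element bound by *Nfe2l1* and *Nfe2l2* products, in *Psmb5* and *Psmb6*. They lie at chr7:114276119-114276266 (minus strand), chr12:55384072-55384221 (plus), chr14:54618023-54618145 (minus) and chr11:70525207-70525356 (plus), in that order.
Psma1: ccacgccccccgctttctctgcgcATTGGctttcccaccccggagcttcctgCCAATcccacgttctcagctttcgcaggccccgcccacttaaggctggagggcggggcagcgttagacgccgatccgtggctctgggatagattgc
Psma6: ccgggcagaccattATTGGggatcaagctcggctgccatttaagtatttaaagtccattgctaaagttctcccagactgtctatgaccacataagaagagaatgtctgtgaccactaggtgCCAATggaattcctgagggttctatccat
Psmb5: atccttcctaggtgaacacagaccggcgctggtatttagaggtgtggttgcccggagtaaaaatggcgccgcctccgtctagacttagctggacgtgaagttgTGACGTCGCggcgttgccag
Psmb6: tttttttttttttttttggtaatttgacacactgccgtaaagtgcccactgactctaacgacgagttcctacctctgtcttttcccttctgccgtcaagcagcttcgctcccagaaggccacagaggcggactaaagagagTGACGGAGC

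Searched on both strands, the antioxidant response element core was in both catalytic promoters at hand, starting 47 bases before the start in *Psmb5* and 9 bases before it in *Psmb6*, and in none of the 8 α ring promoters. Over all members it was in 5 of 32 promoters (15.6%), against 12.4% of the 32851 promoters in the table. The CCAAT box was in 5 of 8 α ring promoters (62.5%) and in 13 of 32 member promoters (40.6%), against 37.4%. The gamma-activated sequence (TTCNNNGAA) was in 1 of 32, that of *Psmd2* (3.13%, against 8.30%). The core of the interferon-stimulated response element (GAAANNGAA) was in 5, those of *Psmb3*, *Psmb4*, *Psmc2*, *Psmd4* and *Psmd9* (15.6%, against 8.56%). The heat shock element (GAANNTTC) was in 1, that of *Psmb5* (3.13%, against 7.86%), and the NF-kB motif (GGGANTTCC) in 0 of 32 (1.68% of all promoters). A match is the presence of these letters and says nothing of binding.

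In α-like cells the α ring and the catalytic genes were ordered as in β-like cells. The catalytic genes had a summed log2 ratio of -0.83 (-0.98 to -0.68) under IL-1β, -0.65 (-0.80 to -0.50) under IFN-γ and -0.17 (-0.32 to -0.02) under both, and the α ring one of 0.19, 0.22 and 0.64. *Psmb5* stood at 281 CPM untreated, 152 under IL-1β, 189 under IFN-γ and 178 under both. *Psmb6* stood at 253, 153, 172 and 247 CPM and *Psmb7* at 143, 76.6, 99.3 and 135 CPM. Here the untreated library was the highest of the 4 in plain CPM for each of the 3 genes, and the median gene differed from the untreated library by only 0.00, 0.09 and -0.10 on the log2 scale, so the lower levels did not rest on the centring. The 88 α-like cells of the untreated library enter each of these comparisons.

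*Psma5*, *Psma6* and *Psma7* were ordered in α-like cells by the same cytokine as in β-like cells. *Psma6* had 143, 180, 133 and 219 CPM, with the libraries with IL-1β again above the others. *Psma5* had 154, 164, 234 and 265 CPM and *Psma7* 297, 307, 415 and 447 CPM, with the libraries with IFN-γ above the others. *Psmd13* had 144, 66.8, 65.2 and 78.8 CPM, with the untreated library highest, whereas in β-like cells the library with both cytokines was highest. Of 34 members tested, 5 were higher and 10 lower under IL-1β (29.1% and 28.7% of 5832 genes), 5 and 11 under IFN-γ (22.4% and 21.7%) and 11 and 4 under both (31.3% and 30.2%). With both cytokines, 20 were higher and 2 lower against IL-1β (23.8% and 22.6%) and 17 and 1 against IFN-γ (28.2% and 28.7%). The share of α-like cells with high *Hspa1a*, a heat shock gene (at least 10 UMIs per 10000), was 2.27%, 5.62%, 2.43% and 32.1%, so that it stood out in the library with both cytokines. Without those cells the counts for both were 11 and 4 against untreated (31.1% and 31.03% of genes), 19 and 0 against IL-1β (24.0% and 23.4%) and 16 and 0 against IFN-γ (28.0% and 28.9%). With these cells kept but without centring the counts against IL-1β and IFN-γ were 12 and 2 (all genes 18.1% and 30.1%), and 10 and 2 (18.5% and 40.1%).

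In δ-like cells, of which the untreated library held 27, single genes had few UMIs and wide intervals, and the members are given mainly by their counts. Of 33 members tested, 7 were higher and 7 lower under IL-1β (33.2% and 32.8% of 6033 genes), 5 and 9 under IFN-γ (27.8% and 27%, or 8 and 15 under stricter class limits, with 38.03% and 39.3% of genes) and 12 and 4 under both (35% and 34.7%). The summed level of all members was 4837, 5293, 4815 and 5502 CPM, with log2 ratios of 0.08, 0.01 and 0.32. The library with both cytokines was again the highest. *Psma3* had a log2 ratio of 1.08 (0.68 to 1.501) under IL-1β. *Psma6*, which was highest of the members under IL-1β in β-like cells, was at -0.09 (-0.70 to 0.54) here. In δ-like cells the share with high *Hspa1a* was 0%, 1.43%, 2.75% and 36.7%, and without those cells 14 of 34 members were higher and 6 lower under both cytokines (35.1% and 35.4% of genes).

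The non-endocrine classes carried more proteasome transcript relative to all UMIs. The summed level was 6856 CPM untreated, 7243 under IL-1β, 7955 under IFN-γ and 8378 under both in macrophage-like cells, and 9368, 8930, 8652 and 9062 CPM in endothelial-like cells. Averaged over the 4 libraries, macrophage-like cells exceeded β-like cells by a log2 difference of 1.10 ± 0.18 (SD, n = 4) and endothelial-like cells by 1.34 ± 0.28 (SD, n = 4). Without hormone genes in the total the differences were 0.42 ± 0.08 (1.34-fold) and 0.67 ± 0.15 (1.59-fold). For the catalytic genes alone, macrophage-like cells were 1.92-fold higher on that scale (0.94 ± 0.09). Each difference had the same sign in 4 of 4 libraries, and the exact sign-flip permutation test gave p = 0.13 for each, two-sided, the smallest p that 4 libraries allow. Over 7 classes, fewer captured mRNAs of other kinds and more proteasome mRNA per cell cannot be told apart by such levels.

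Among the endocrine cells, β-like cells had the lowest summed level. α-like cells exceeded them by 0.51 ± 0.28 (SD, n = 4, 1.43-fold) and δ-like cells by 0.53 ± 0.19 (SD, n = 4, 1.44-fold), in 4 of 4 libraries each (exact permutation p = 0.13). Without hormone genes these became 0.16 ± 0.14 (1.12-fold) and 0.21 ± 0.09 (1.16-fold). The 19S genes alone then differed between α-like and β-like cells by 0.03 ± 0.12, higher in 2 of 4 libraries (exact permutation p = 0.875). α-like and δ-like cells differed by 0.01 ± 0.13 (exact permutation p = 1).

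Gene by gene, the cell classes were compared across the 4 libraries with edgeR's quasi-likelihood test and Benjamini-Hochberg adjustment over 10162 genes, which scales away the hormone genes' weight by trimmed means. Library is a term of the fit, so these p-values measure only how far class differences vary among 4 libraries from a single pool of islets. Each library is another condition, so that spread includes any unequal cytokine response of the classes and is not a spread of replicates. Of 34 members tested, 1 was higher and 11 lower in β-like than in α-like cells (21.7% and 19.8% of all genes). *Psma2* was the furthest lower, with a log2 fold change of -0.58 ± 0.09 (SE, edgeR adjusted p = 2.6e-05). It was followed by *Psmd9* at -0.47 ± 0.12 (edgeR adjusted p = 0.0038), *Psmd10* at -0.47 ± 0.15 (edgeR adjusted p = 0.019), *Psmd8* at -0.45 ± 0.10 (edgeR adjusted p = 0.0015) and *Psma4* at -0.43 ± 0.09 (edgeR adjusted p = 0.0011). *Psmb5* was lower in β-like cells by -0.35 ± 0.10 (edgeR adjusted p = 0.0096) and *Psmb6* by -0.31 ± 0.09 (edgeR adjusted p = 0.0125), while *Psmb7* at -0.23 ± 0.12 did not pass (edgeR adjusted p = 0.13). *Psmd3* alone was higher in β-like cells, by 0.37 ± 0.10 (edgeR adjusted p = 0.0072). Some calls rested on 1 library. Without the IL-1β library, *Psmd3* (edgeR adjusted p = 0.070), *Psmd9* (edgeR adjusted p = 0.052) and *Psmb5* (edgeR adjusted p = 0.053) did not pass. Without the untreated library, *Psmb5* (edgeR adjusted p = 0.065), *Psmb6* (edgeR adjusted p = 0.062) and *Psmd10* (edgeR adjusted p = 0.067) did not, nor did *Psmb3* (edgeR adjusted p = 0.063) there, or *Psmb6* (edgeR adjusted p = 0.065) and *Psmd10* (edgeR adjusted p = 0.071) without the library with both cytokines. *Psmb1*, also counted among the lower 11 at -0.26 (edgeR adjusted p = 0.037), did not pass without any 1 of the libraries (edgeR adjusted p from 0.071 to 0.13).

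*Psmd3* was also the member most raised in β-like over δ-like cells, at 0.89 ± 0.15 (edgeR adjusted p = 0.00012), and the single member that differed between α-like and δ-like cells, at 0.52 ± 0.16 (edgeR adjusted p = 0.028). Against δ-like cells, 2 members were higher in β-like cells and 4 lower (16.2% and 13.7% of all genes). The lower 4 were *Psma2*, *Psma3*, *Psma4* and *Psma5*, all of the α ring, with log2 fold changes of -0.58, -0.44, -0.37 and -0.43. *Psma4* did not pass without the IFN-γ library (edgeR adjusted p = 0.11). The other higher member, *Psmd2*, at 0.33 ± 0.12 (edgeR adjusted p = 0.040), did not pass without any 1 of the libraries (edgeR adjusted p from 0.071 to 0.28). Between α-like and δ-like cells 1 member was higher and 0 lower (8.23% and 8.86%), with 3 members at an unadjusted p under 0.05 in edgeR and none called by DESeq2. The *Psmd3* call there was lost without any 1 of the 4 libraries (edgeR adjusted p from 0.060 to 0.12). Beside the members, *Nfe2l1* was higher in β-like than in α-like cells by 1.04 and *Pomp* lower by -0.52, and *Psmb8* was lower in β-like than in δ-like cells by -0.82 and *Psme1* by -0.95.

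**Figure D5:**
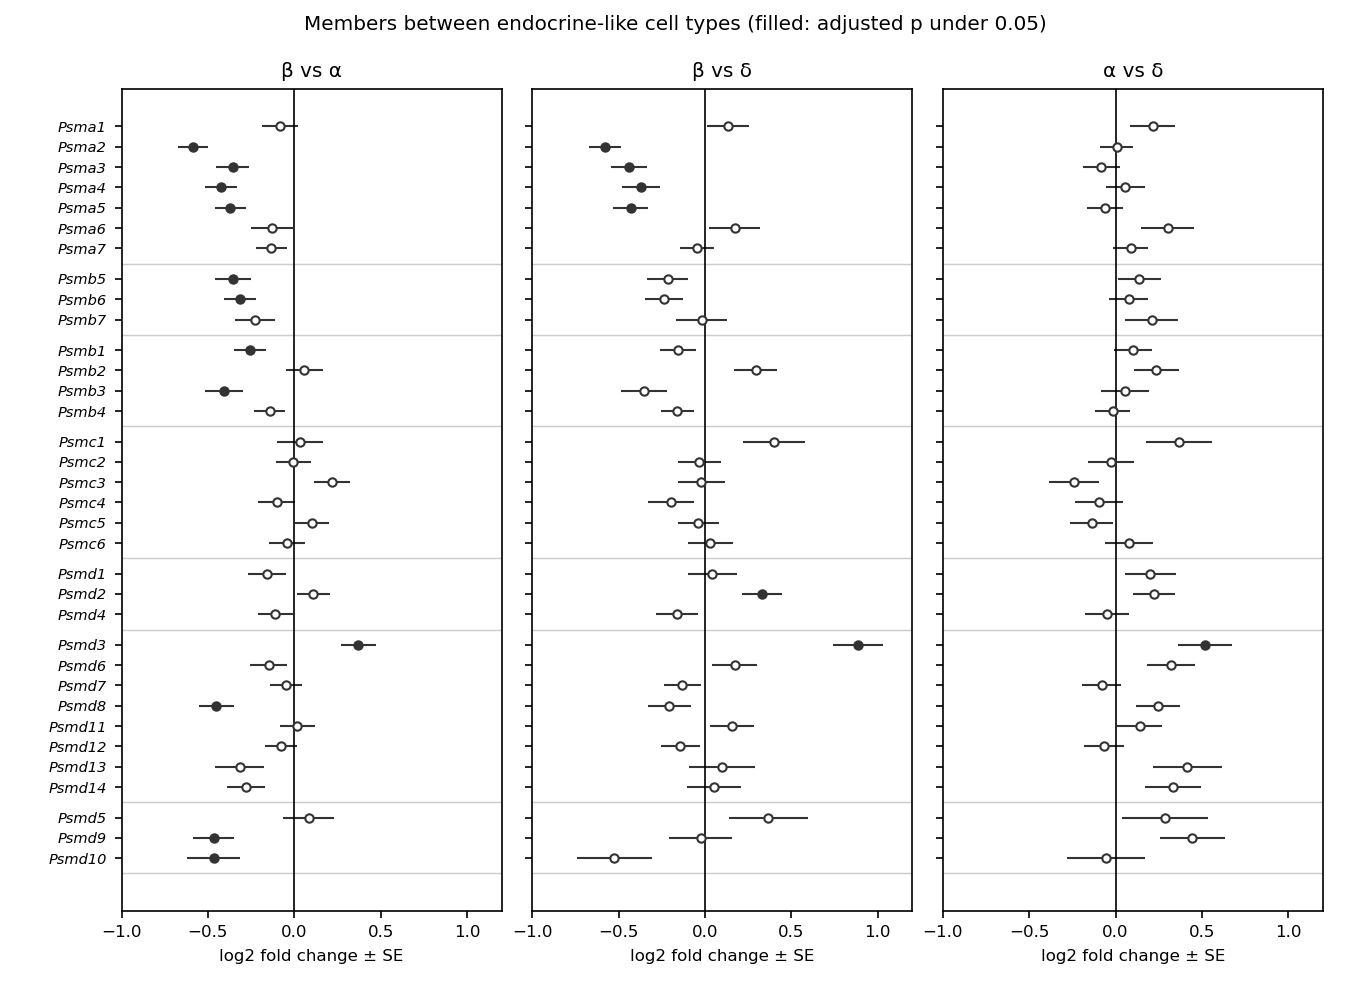
EdgeR log2 fold change of each member with its SE between β-like and α-like, β-like and δ-like, and α-like and δ-like cells over 4 libraries; filled points passed an adjusted p of 0.05. *Psmd3* lies to the side of the first-named class in all 3 panels, and 11 members lie filled on the α-like side of the first.

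Within a library, β-like cells were also split by a UMI of *Nos2*, the inducible nitric oxide synthase. In the IL-1β library, 341 cells with such a UMI had a summed member level of 3853 CPM and 829 cells without one had 3991 CPM. None of 34 members passed the limit between them (6.66% and 5.63% of genes were higher and lower). In the library with both, 923 and 371 such cells had 4032 and 4044 CPM, with 2 of 33 members higher and 0 lower (13.8% and 9.91% of genes). In the IFN-γ library only 7 cells had a *Nos2* UMI, with 4084 against 3571 CPM and 7 members higher and 11 lower (33.3% and 34.05% of genes). Cells of the first kind were deeper (median of 9291 against 7985 UMIs under IL-1β).

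The β-like cells were split by a captured UMI of an inducible subunit as well. At 4000 UMIs per cell, 31.6% of untreated β-like cells had a UMI of *Psmb8*, *Psmb9* or *Psmb10*, against 63.2% under IL-1β, 90.9% under IFN-γ and 94.1% under both. Free RNA can place such a UMI in a cell that does not express the gene and a cell without one can still hold the mRNA, and the part of free RNA was not tested. With IFN-γ, cells with such a UMI had 1.27 catalytic UMIs on average (1.21 to 1.34) and cells without 1.11 (0.92 to 1.32). With IL-1β the means were 1.23 and 1.11, under both 1.57 and 1.64, and untreated 1.43 and 1.31, and in each library the intervals overlapped. The other members had 15.1 and 14.3 UMIs per cell under IL-1β and 15.2 and 13.5 under both. The variance of member UMIs between β-like cells was 1.61 times the mean untreated, 1.59 under IL-1β, 2.24 under IFN-γ and 2.02 under both. Intervals for counting error alone are thus too narrow for these cell averages.

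Cells with high *Hspa1a*, an inducible heat shock gene, were compared with the rest because they were unevenly spread, with 20 of the untreated β-like cells, 102 under IL-1β, 80 under IFN-γ and 90 under both (at least 10 UMIs per 10000). By edgeR on 8 sums over 10739 genes, 0 of the members were higher and 0 lower in such cells (3.24% and 2.94% of all genes), with 6 members at an unadjusted p under 0.05 and 1 called by DESeq2. *Psmb5* differed by -0.02 (edgeR adjusted p = 0.96), *Psmb6* by 0.25 (edgeR adjusted p = 0.39) and *Psmb7* by 0.29 (edgeR adjusted p = 0.34). The inducible *Psmb10* was lower in those cells by -0.93 (edgeR adjusted p = 0.0065), and the polyubiquitin gene *Ubb* was higher by 1.08.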

How the data were processed

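The authors deposited filtered gene-by-cell matrices of raw UMI counts, 1 per library, made with Cell Ranger on mm10 according to the submitters' processing notes (software version 3.0.0 in the matrix headers). The labels name the Single Cell 3' v2 kit and the study's methods the v3 kit, a difference that the sources used here do not settle. Here the limits on a cell were 200 to 4000 genes and a mitochondrial share of 12%; no doublet caller was run, so doublets were limited by the upper gene number only, and 16 barcodes occurred in 2 libraries (4 among kept cells). A cell was β-, α-, δ- or PP-like when its leading hormone (*Ins1* with *Ins2*, *Gcg*, *Sst*, *Ppy*) took at least 5% of its UMIs and 3 times the next. It also had to have under 3 detected markers of each of the endothelial, macrophage and mesenchymal lists. The hormone rule took precedence over ductal and acinar markers only. Ductal and acinar classes are not described because their markers were widespread in endocrine cells. Of kept cells with insulin as the leading hormone, 59 had a share of 4 to 5%, under the limit, and 53 one of 5 to 6%. UMIs were summed per library and class (β-like totals 20090540, 10105480, 14262998 and 15979772), scaled to CPM with a pseudocount of 1 and centred on the median gene. Sums per library and class were tested with edgeR 4.0.16 (TMM, filterByExpr, quasi-likelihood, library and class as terms), with DESeq2 1.42.0 as an alternative, under R 4.3.3. Scripts used Python 3.11.15, numpy 2.4.6, scipy 1.17.1, pandas 2.3.3 and matplotlib 3.10.9 and were tested on simulated data. Reads of processed pseudogene copies of a subunit cannot be separated from it.

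Members and gene lists were chosen with earlier results of these data known. Named were *Psmb5*, *Psmb6* and *Psmb7*, the 5 highest and 5 lowest members of each β-like comparison with the untreated library, the 5 largest passing members of each edgeR contrast, members under the low-value limit and the pathway lists. Genes named beyond these, the neighbours in role of named genes among them, were chosen after their values were seen. Alternatives covered the fold limit, centring, hormone genes in the total, the low-value limit, pseudocount, cell filters, class limits, equal depth, *Hspa1a*-high cells, DESeq2 and leaving out each library. Positions are GENCODE M21 (GRCm38; 30934 of 31053 identifiers matched). Intervals and limits at a count of 0 (3 counts) cover counting error only. Some genes of the marker and pathway lists are not reported here.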

Additional observations from a re-analysis of the deposited data

Results flagged for a closer look

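The summed log2 ratio of all members against untreated islets had opposite signs in β-like and α-like cells under each single cytokine, with intervals for counting error that excluded 0. It was 0.039 (0.02 to 0.06) in β-like and -0.16 (-0.21 to -0.10) in α-like cells with IL-1β, and 0.035 (0.02 to 0.05) and -0.15 (-0.20 to -0.10) with IFN-γ. The catalytic genes did so with both cytokines, at 0.10 (0.05 to 0.15) in β-like and -0.17 (-0.32 to -0.02) in α-like cells. With 1 library per condition these differences were not tested.

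The summed level of the members in *Hspa1a*-high against *Hspa1a*-low β-like cells also had opposite signs between libraries. In plain CPM the log2 ratio was 0.44 in the untreated library, where 20 cells were high, and -0.15 in the library with both cytokines, where 90 were, and relative to the median gene it was 0.40 and -0.12. It was 0.04 and 0.12 on these scales with IFN-γ, and with IL-1β its sign turned with the scale (-0.09 and 0.06). This difference was not tested either.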

How the results depend on the processing

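At a limit of 1.5-fold the counts in both directions, in the order IL-1β, IFN-γ and both against untreated, were 3, 0 and 6 in β-like cells (all genes 15.3% higher and 16.6% lower, 5.02% and 2.95%, 17.7% and 15.4%), 6, 5 and 8 in α-like cells (16.9% and 16.2%, 10.03% and 7.56%, 19.8% and 17.6%) and 6, 5 and 10 in δ-like cells (22.2% and 22.3%, 16.4% and 13.6%, 24.8% and 24.5%). For both cytokines against IL-1β and against IFN-γ they were 8 and 3 in β-like (8.96% and 4.77%, 13.3% and 11.7%) and 8 and 9 in α-like cells (12.003% and 8.86%, 15.7% and 16.2%). Without centring the counts were 15 for IFN-γ against untreated and 5 for both against IFN-γ in β-like cells and 14 for both against IL-1β in α-like cells (shares of all genes given above). Without hormone genes and centring the last 2 were 11 and 14. At equal depth the β-like count with IFN-γ was 11 (all genes 15.2% and 15.9%), and with class limits of 10% and 10 times the next hormone the δ-like count with IFN-γ was 23 (38.03% and 39.3%). Without centring 5 members counted as lower with IL-1β in β-like cells reversed, *Psmb7* to 0.034, *Psmc5* to 0.011, *Psmb3* to 0.079, *Psmd9* to 0.11 and *Psmc3* to 0.15, and *Psmb6* with IFN-γ, just inside the limit, went to 0.012. The catalytic shares under other settings were computed after the data had been seen; the largest moves were 21.1% for untreated β-like cells at equal depth and 17.7% for δ-like cells with both cytokines under the strict class limits. The members passing between β-like and α-like cells numbered 7 to 11 when each library was left out. There were 7 without the untreated library, where 2042 of 10481 genes were higher and 1874 lower. Between β-like and δ-like cells the members numbered 5 to 6, or 2 under the strict class limits. Calls among all genes were fewer there too (862 higher and 516 lower of 9470, against 1646 and 1393 of 10162 at the main settings). The α-like to δ-like call of *Psmd3* was lost (0 members) under DESeq2, without hormone genes, at equal depth, under the strict class limits and without any 1 of the libraries, and *Psmd3* itself also without the upper gene limit. For *Hspa1a*-high cells the number was 1 with DESeq2, where 260 of 10739 genes were higher and 204 lower. It was 2 without hormone genes (201 and 449 of 10739 genes) and 2 without the low-count filter (353 and 681 of 18581). With each library left out it was 0 to 0. The cause of these moves was not tested. Of the recalculations of the 5 highest, the 5 lowest and the catalytic members of each comparison, 626 kept direction and call, 45 moved by more than counting error, 26 lost a call, 2 gained one and 2 reversed (*Psmb7* and *Psmc5*, the other reversals above lying outside this set or the limit), and of those of main counts, levels and shares 270 stayed and 35 moved. With 1 library per condition, depth limits only the intervals for counting error, and library and cytokine cannot be told apart.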
